A study of Mus musculus with 15 samples.

Results

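The genes described here are 10 components of the Nodal signalling pathway: Nodal, Gdf3, Pcsk6, Tdgf1, Acvr1b, Acvr2b, Foxh1, Lefty1, Lefty2 and Smad7. They were chosen by symbol, after the gene IDs of the count tables were matched to GENCODE M21 without their version numbers, and they are 10 of the 55471 gene IDs counted. All 10 passed the filter on low counts in every comparison. Poly(A) RNA was sequenced from 15 libraries of mouse E14 embryonic stem cells (mESCs, cells of the early embryo that can form all its lineages) and of embryoid bodies (EBs, aggregates that differentiate in suspension) made from them, in 5 groups of 3. The mESCs grew in 2i/LIF medium, whose MEK and GSK3 inhibitors and leukemia inhibitory factor keep them undifferentiated. The series as a whole concerns NSD1, a histone H3K36 methyltransferase, at enhancers and in cell fate.

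The first 2 groups were wild-type E14 mESCs, 1 left nontreated and 1 exposed for 72 h to dTAG-13 at 500 nM. dTAG-13 is a degrader molecule that brings a tagged protein to a ubiquitin ligase, and wild-type cells carry no tag. The third group was nontreated mESCs of the NSD1-dTAG knock-in line, whose NSD1 carries the degron tag. The last 2 groups were EBs of the same knock-in line after 6 days of differentiation, either nontreated or kept in 500 nM dTAG-13 for those 6 days. Both EB groups therefore share the knock-in allele. EBs without the tag, and tagged mESCs with the compound, were not analysed here, so an effect of the compound itself in EBs and an effect of losing NSD1 cannot be told apart. The degrader acts on protein, which the counts do not measure. The labels call the 3 libraries of a group biological replicates, and do not say from how many clones or cultures they came, so p-values reflect only how much these libraries differ among themselves.

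Nodal is a secreted ligand of the TGF-beta family that patterns the early embryo. Its precursor is cut by proprotein convertases such as Pcsk6 (PACE4), and it signals through type I (Acvr1b, ALK4) and type II (Acvr2b) receptors together with the co-receptor Tdgf1 (Cripto). Phosphorylated SMAD2 and SMAD3 then act with SMAD4 and the transcription factor Foxh1. Lefty1 and Lefty2 are secreted antagonists and classical targets of the same pathway, which makes them feedback inhibitors, and Smad7 is an inhibitory SMAD. In the embryo, Nodal maintains the epiblast, induces mesoderm and endoderm in the primitive streak, and specifies left-right asymmetry.

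Lefty1 and Lefty2 lie on the same strand of chromosome 1 (GRCm38), Lefty2 (ENSMUSG00000066652.5) at chr1:180893108-180899103 and Lefty1 (ENSMUSG00000038793.8) at chr1:180935022-180938400, with 35918 bp between them. Because the main contrast below is between these similar genes, their coding sequences were aligned. They are identical at 1014 of 1104 bases, or 91.8%, and the longest identical run is 140 bases. The stretch of 90 coding bases in which they differ most (coding positions 35 to 124, 27 differences, at chr1:180935144-180935233 in Lefty1 and chr1:180893218-180893307 in Lefty2) is printed with the differing bases in capitals, since reads over it can be told apart.
Lefty1: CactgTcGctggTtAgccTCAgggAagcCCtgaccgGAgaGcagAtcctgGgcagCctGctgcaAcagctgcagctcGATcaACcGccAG
Lefty2: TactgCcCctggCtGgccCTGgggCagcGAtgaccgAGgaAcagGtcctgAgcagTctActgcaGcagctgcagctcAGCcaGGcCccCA
Of all 50-base windows of the annotated transcript, 17.9% in Lefty1 and 11.6% in Lefty2 occur in the other gene. With 100-base windows the shares were 4.8% and 3.07%. How the authors' counting treated reads that fit both genes is not given in the sources used here, so each Lefty count is uncertain to the extent of those windows.

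The RefSeq promoter table (GRCm38.p6, 250 bases before to 50 bases after the start) held 5 of the 10 genes: Nodal, Tdgf1, Acvr1b, Acvr2b and Pcsk6. Those of Nodal and Tdgf1 are shown because the ligand and its co-receptor both had lower counts in dTAG-13 EBs, Nodal by a difference that missed the threshold. The motifs in capitals were searched on both strands. They are TGTNNATT (a FOXH1-type motif), GTCTAGAC and CAGAC (a SMAD palindrome and the shorter SMAD element), CTTTGNT (a TCF/LEF-type motif) and GGGNGTGG (a KLF-type motif).
Nodal, chr10:61417722-61418021, plus strand: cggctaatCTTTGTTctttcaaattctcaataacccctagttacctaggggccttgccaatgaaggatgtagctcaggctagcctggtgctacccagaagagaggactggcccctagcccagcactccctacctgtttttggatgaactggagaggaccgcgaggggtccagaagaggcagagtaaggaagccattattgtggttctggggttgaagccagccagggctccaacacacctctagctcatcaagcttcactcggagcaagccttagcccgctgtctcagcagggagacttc
Tdgf1, chr9:110946109-110946408, minus strand: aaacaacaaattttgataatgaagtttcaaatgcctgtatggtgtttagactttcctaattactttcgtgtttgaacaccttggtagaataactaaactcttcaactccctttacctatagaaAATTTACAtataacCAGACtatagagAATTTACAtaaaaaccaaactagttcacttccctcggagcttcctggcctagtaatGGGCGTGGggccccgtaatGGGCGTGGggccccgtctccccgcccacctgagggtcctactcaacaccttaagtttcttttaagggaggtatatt
The Tdgf1 window held 2 matches to the FOXH1-type motif with 1 SMAD element between them, and 2 matches to the KLF-type motif. The Nodal window held 1 match, to the TCF/LEF-type motif. Pcsk6, whose lower level in dTAG-13 EBs also missed the threshold, had 1 match in its window, to the KLF-type motif. The Acvr2b window held 1 match, to the SMAD element, and the Acvr1b window held none. Of 32851 promoter windows of this length, 12.2% held the FOXH1-type motif, 49.6% the SMAD element, 18.6% the TCF/LEF-type motif and 17.6% the KLF-type motif. These matches are letters in a window, not measured binding.

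Gene counts summed to between 18704591 and 29103958 per library. In every group 1 library had a shorter mean exon length per read than the other 2, and a larger share of counts on ribosomal protein genes. These were wild-type nontreated library 1, wild-type dTAG-13 library 3, NSD1-dTAG mESC library 1, and library 3 of both EB groups. Their mean exon length per read was 4.99 to 5.50 kb against 5.71 to 5.93 kb in the others. Stem cell markers were present in all mESC libraries, where the 8 genes summed to between 4851 and 5343 CPM. CPM are counts scaled to a common total of gene counts per library. Of 12 markers of visceral endoderm (the outer layer of the early embryo), only Ttr had 0 counts in all 9 mESC libraries. The 12 summed to between 457 and 623 CPM there, the bulk from Apoe, with group means of 467 to 541 CPM.

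All 10 genes were expressed in every group. The fewest counts behind a group value were 895, for Pcsk6 in dTAG-13 EBs. Per kilobase of exon, in nontreated wild-type mESCs, Tdgf1 (121 ± 5.45 CPM per kb, SD, n = 3) and Lefty2 (121 ± 10.2 CPM per kb) had the highest levels. Gdf3 and Lefty1 followed at 42.8 and 35.1 CPM per kb, and Acvr2b was lowest at 6.09 CPM per kb. In nontreated EBs the order was Tdgf1 (132 ± 9.86 CPM per kb), Lefty1 (58.3 ± 5.13), Lefty2 (48.8 ± 9.77), Foxh1 (45.9 ± 3.07) and Nodal (40.1 ± 1.57), with Pcsk6 lowest at 3.08 CPM per kb. In this order the spreads of Lefty1 and Lefty2 overlapped, as did those of Lefty2 and Foxh1.

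**Figure D1:**
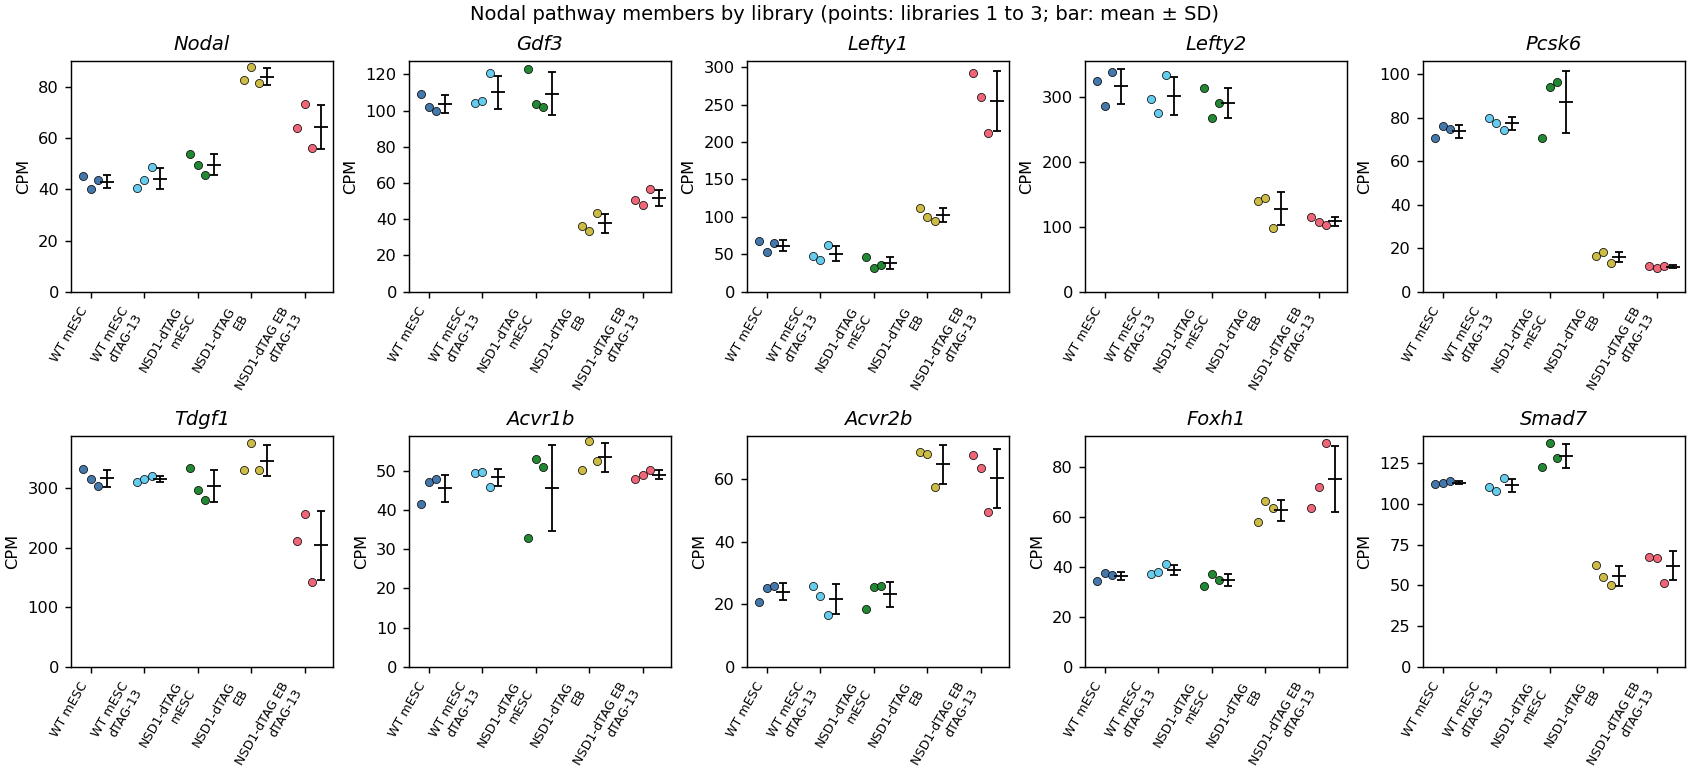
CPM of the 10 genes in each library, one panel per gene with the vertical axis starting at 0; points are libraries and bars give the mean ± SD of each of the 5 groups of 3. Lefty1 was highest in dTAG-13 EBs (212 to 292 CPM), while Lefty2 and Pcsk6 were lower in both EB groups than in all mESC libraries.

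Between nontreated NSD1-dTAG mESCs and the EBs made from them, the pathway genes moved in both directions. Acvr2b, Lefty1, Foxh1 and Nodal rose, and Pcsk6, Gdf3, Smad7 and Lefty2 fell. These are 8 of 10 genes called at an adjusted p below 0.05, in a comparison where 59.5% of all 15193 genes tested were called (33.1% higher and 26.3% lower). The median log2 fold change was 0.06 over the 10 genes and 0.02 over all genes tested. The call of each of these 8 genes, and the lack of one for Tdgf1 and Acvr1b, was the same in all 12 alternative fits tried.

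Nodal (ENSMUSG00000037171.6, chr10:61417972-61425338, plus strand) measured 53.7, 49.7 and 45.5 CPM in the 3 NSD1-dTAG mESC libraries. In nontreated EBs it measured 82.7, 87.8 and 81.6 CPM. Every EB library lay above every mESC library, and the log2 fold change was 0.61 (SE 0.11, edgeR adjusted p = 0.0019). Gdf3, a related ligand expressed in pluripotent cells (chr6:122605403-122610087, minus strand), went the other way. It measured 122.9, 103.5 and 102.1 CPM in the mESCs and 36.0, 33.8 and 43.6 CPM in the EBs, again without overlap, a log2 fold change of -1.68 (SE 0.15, edgeR adjusted p = 2.96e-05).

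Pcsk6, the convertase (chr7:65861734-66050386, plus strand), showed the greatest change of the 10 genes here. Its values were 70.7, 94.3 and 96.7 CPM in NSD1-dTAG mESCs and 16.2, 18.3 and 13.4 CPM in EBs. It was 6.02-fold lower in EBs (log2 fold change -2.59, SE 0.16, edgeR adjusted p = 5.00e-06). Its exons share 156 bp with Gm45213 on the same strand, and reads there could be split or lost. Furin, another convertase that cuts Nodal, rose from 9.45, 11.69 and 12.01 CPM to 66.5, 58.6 and 55.8 CPM (log2 fold change 2.31, SE 0.13, edgeR adjusted p = 3.37e-06), so the 2 convertases moved in opposite directions.

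The co-receptor Tdgf1 (chr9:110939603-110946158, minus strand) measured 334, 296 and 281 CPM in the mESCs and 331, 376 and 331 CPM in the EBs. The ranges overlapped and the log2 difference was 0.04 (SE 0.12, edgeR adjusted p = 0.795). The annotation holds 2 pseudogenes named for Tdgf1, and reads shared with them make its counts uncertain. Of the receptors, Acvr2b (chr9:119402118-119434995, plus strand) rose from 18.6, 25.3 and 25.7 CPM to 68.7, 68.0 and 57.5 CPM (log2 fold change 1.34, SE 0.15, edgeR adjusted p = 9.85e-05). For the type I receptor Acvr1b (chr15:101174067-101213684, plus strand) the mESC libraries spread from 33.0 CPM in library 1 to 53.1 CPM in library 2, the EB libraries ranged from 50.3 to 57.6 CPM, and the log2 difference was 0.09 (SE 0.17). Foxh1 (chr15:76668225-76669948, minus strand), which guides SMAD complexes to DNA, rose from 32.4, 37.1 and 34.9 CPM to 58.1, 66.3 and 63.6 CPM (log2 fold change 0.70, SE 0.11, edgeR adjusted p = 5.74e-04).

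Among the antagonists, Lefty1 measured 46.7, 31.7 and 35.2 CPM in NSD1-dTAG mESCs and 112, 100.3 and 94.7 CPM in EBs. Lefty2 measured 313, 267 and 289 CPM in the same mESCs and 139, 145 and 98.0 CPM in EBs. The 2 genes thus moved in opposite directions by similar amounts, Lefty1 by a log2 fold change of 1.29 (SE 0.17, edgeR adjusted p = 3.23e-04) and Lefty2 by -1.33 (SE 0.17, edgeR adjusted p = 2.05e-04), and neither had overlapping groups. Smad7 (ENSMUSG00000025880.11) fell from 122, 137 and 128 CPM to 62.4, 54.9 and 50.2 CPM (log2 fold change -1.35, SE 0.12, edgeR adjusted p = 2.69e-05).

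All 6 epiblast markers and 11 of 12 visceral endoderm markers rose in the EBs, and all 8 stem cell markers fell. Of all genes tested, 33.1% were called higher and 26.3% lower. The summed stem cell markers went from 4907 to 5343 CPM in NSD1-dTAG mESCs to 1759 to 1846 CPM in EBs, and the summed visceral endoderm markers from 475 to 623 CPM to 864 to 1191 CPM, with Apoe (541 ± 74.3 CPM in mESCs) the bulk of the mESC sum. Of the neural markers, Nes and Pax6 rose and Tubb3 fell, among 4 tested of 6. In bulk RNA, more or fewer cells of a type and more or less RNA per cell cannot be told apart.

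**Figure D2:**
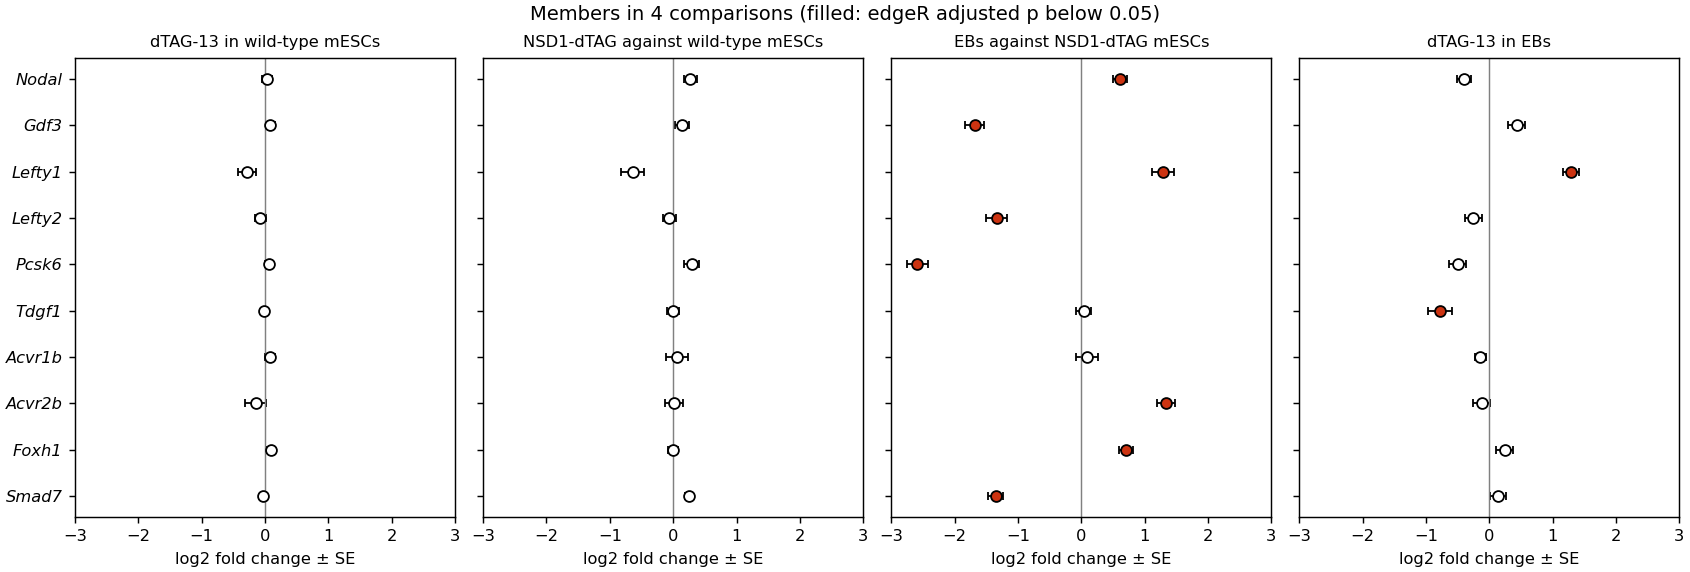
Log2 fold change with its standard error for each of the 10 genes in 4 comparisons; filled points passed an edgeR adjusted p below 0.05. No gene was called in the mESC comparisons, 8 were called between EBs and mESCs, and Lefty1 (higher) and Tdgf1 (lower) were called for dTAG-13 in EBs.

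With dTAG-13, EBs had more Lefty1 RNA and less Tdgf1 RNA than nontreated EBs. Those were the 2 of 10 genes called, in a comparison where 6.76% of 15236 genes were called (3.98% higher and 2.78% lower). The median log2 fold change of the 10 genes was -0.13, against -0.01 over all genes tested. This comparison and the one between EBs and mESCs share the 3 nontreated EB libraries. The values in dTAG-13 EBs follow for the genes described above.

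Lefty1 measured 292, 260.1 and 212 CPM in dTAG-13 EBs against 112, 100.3 and 94.7 CPM in nontreated EBs. Every treated library lay above every nontreated one. The change was 2.45-fold (log2 fold change 1.29, SE 0.13, edgeR adjusted p = 0.0039), and it was called in all 12 alternative fits, with log2 values from 1.19 to 1.40. Lefty2 measured 115, 107 and 102 CPM against 139, 145 and 98.0 CPM. These ranges overlapped because nontreated EB library 3 was low, and the log2 difference was -0.25 (SE 0.14, edgeR adjusted p = 0.352). Lefty2 was called lower when nontreated EB library 3 was left out (-0.41, edgeR adjusted p = 0.0361) and when the libraries that stand apart were left out (-0.37, edgeR adjusted p = 0.0056).

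Tdgf1 measured 212, 257 and 143 CPM in dTAG-13 EBs against 331, 376 and 331 CPM in nontreated EBs. All treated libraries were below all nontreated ones, and the log2 fold change was -0.78 (SE 0.19, edgeR adjusted p = 0.0468). The adjusted p was above the threshold with a gene-length offset (0.0625) and without nontreated EB library 1, 2 or 3 or dTAG-13 EB library 1, up to 0.169. With the replicate number as a block it was 0.0177 (log2 fold change -0.82).

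Both ligands had groups that did not overlap but missed the threshold in the unblocked fit. Nodal measured 63.8, 73.3 and 56.0 CPM in dTAG-13 EBs against 82.7, 87.8 and 81.6 CPM, a log2 difference of -0.40 (SE 0.11, edgeR adjusted p = 0.0641). Gdf3 measured 50.6, 47.8 and 56.8 CPM against 36.0, 33.8 and 43.6 CPM, a log2 difference of 0.43 (SE 0.13, edgeR adjusted p = 0.0941). Same-numbered EB libraries deviated together from their group means, and with the replicate number as a block Nodal was called lower (-0.41, SE 0.08, edgeR adjusted p = 0.0247) and Gdf3 higher (0.44, SE 0.07, edgeR adjusted p = 0.0152). Blocked, 4 of the 10 genes were called, beside 1834 of all 15236 genes tested. Library 3 stands apart in both EB groups, and whether the block holds more than that difference was not tested. Both ligands were also called without the libraries that stand apart (Nodal -0.33, edgeR adjusted p = 0.0232, and Gdf3 0.48, edgeR adjusted p = 0.0050).

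Pcsk6 measured 12.004, 10.675 and 11.662 CPM with dTAG-13 against 16.2, 18.3 and 13.4 CPM without, also without overlap, and missed the threshold (log2 difference -0.50, SE 0.14, edgeR adjusted p = 0.0725). It was called lower without nontreated EB library 3 (-0.60, edgeR adjusted p = 0.0311) and without the libraries that stand apart (-0.62, edgeR adjusted p = 0.0099). Foxh1 measured 63.6, 72.1 and 89.5 CPM against 58.1, 66.3 and 63.6 CPM, and its log2 difference of 0.24 (SE 0.13) was not called. The receptors and Smad7 differed by -0.14 (Acvr1b, SE 0.09), -0.12 (Acvr2b, SE 0.13) and 0.13 (Smad7, SE 0.13) on the log2 scale. The ranges of Acvr2b and Smad7 overlapped. Those of Acvr1b nearly met, at most 50.315 CPM with dTAG-13 and at least 50.325 CPM without. Neither these 3 genes nor Foxh1 were called in any of the 12 alternative fits.

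In the same comparison 4 of 8 stem cell markers were lower, beside 2.78% of all genes: Nanog by a log2 fold change of -0.74, Klf4 by -1.16, Zfp42 by -1.14 and Esrrb by -0.83. This count was 1 without nontreated EB library 1 or dTAG-13 EB library 2, 2 without dTAG-13 EB library 1 and 0 without nontreated EB library 2. The 2 markers with the highest levels in dTAG-13 EBs, Pou5f1 (log2 difference -0.12) and Sox2 (0.02), were not called. The summed stem cell markers were 1387 to 1510 CPM with dTAG-13 and 1759 to 1846 CPM without. None of 12 visceral endoderm markers and none of 6 epiblast markers was called by edgeR with all 6 libraries. Without the libraries that stand apart, 7 of the visceral endoderm markers were called lower and 4 of the epiblast markers higher (Pou3f1, Dnmt3b, Sox3 and Utf1). That fit called 1652 of 15463 genes higher and 1581 lower. Of the epiblast markers 2 were called higher without nontreated EB library 3, and 1, Fgf5, was called lower with the replicate block. Visceral endoderm calls, all lower, numbered 2 without nontreated EB library 3 or dTAG-13 EB library 3. The sums of the 2 lists were 770 to 1681 CPM and 1704 to 2408 CPM with dTAG-13, and 864 to 1191 CPM and 1413 to 2091 CPM without. Of 4 neural markers tested, the eye and hindbrain factor Pax6 fell, from between 5.91 and 6.93 CPM to between 2.13 and 2.66 CPM (log2 fold change -1.44, SE 0.17, edgeR adjusted p = 0.0063), and the 6 neural markers summed to 209 to 282 CPM with dTAG-13 and 182 to 260 CPM without. The part of these cell types in the Lefty1 and Tdgf1 differences was not tested.

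The 2 antagonists were also compared with each other inside each library, where depth and scaling cancel. A length bias that differs between libraries does not cancel, since the exons of Lefty1 cover 1758 bp and those of Lefty2 2611 bp. The ratio of Lefty1 to Lefty2 per kilobase of exon was 0.308, 0.274 and 0.287 in nontreated wild-type mESCs, and 0.242, 0.227 and 0.277 with dTAG-13. In NSD1-dTAG mESCs it was 0.222, 0.177 and 0.181. Lefty2 therefore had the higher level in all 9 mESC libraries. In nontreated EBs the ratio was 1.20, 1.03 and 1.43, close to equal levels, and in dTAG-13 EBs it was 3.76, 3.61 and 3.07. The library that stands apart had the highest ratio of its group except in dTAG-13 EBs, where it had the lowest.

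As a share of the counts of both genes, Lefty1 made up 16.3% ± 0.816 (SD, n = 3) in nontreated wild-type mESCs, 14.3% ± 1.25 with dTAG-13 and 11.5% ± 1.31 in NSD1-dTAG mESCs. It made up 44.9% ± 4.10 in nontreated EBs and 70.0% ± 2.27 in dTAG-13 EBs. The summed CPM of the pair was 230 ± 32.2 in nontreated EBs and 363 ± 46.7 in dTAG-13 EBs, beside 328 ± 30.7 in NSD1-dTAG mESCs. The EB groups thus differed from each other both in the sum and in the share of it that Lefty1 supplied. Per kilobase of exon, Lefty1 was above Lefty2 in every library of both EB groups.

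The log2 ratio was 2.66 higher in nontreated EBs than in NSD1-dTAG mESCs (6.30-fold) and 1.52 higher in dTAG-13 EBs than in nontreated EBs (2.87-fold). Between NSD1-dTAG and wild-type mESCs the log2 difference was -0.59 (1.51-fold lower in the tagged line). Groups did not overlap in these 3 comparisons, and the two-sided exact permutation p was 0.1 in each, the smallest that 3 against 3 libraries allow (0.133 after adjustment over the 4 comparisons). For dTAG-13 in wild-type mESCs the difference was -0.22 with overlapping groups (exact permutation p = 0.2, adjusted 0.2).

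**Figure D3:**
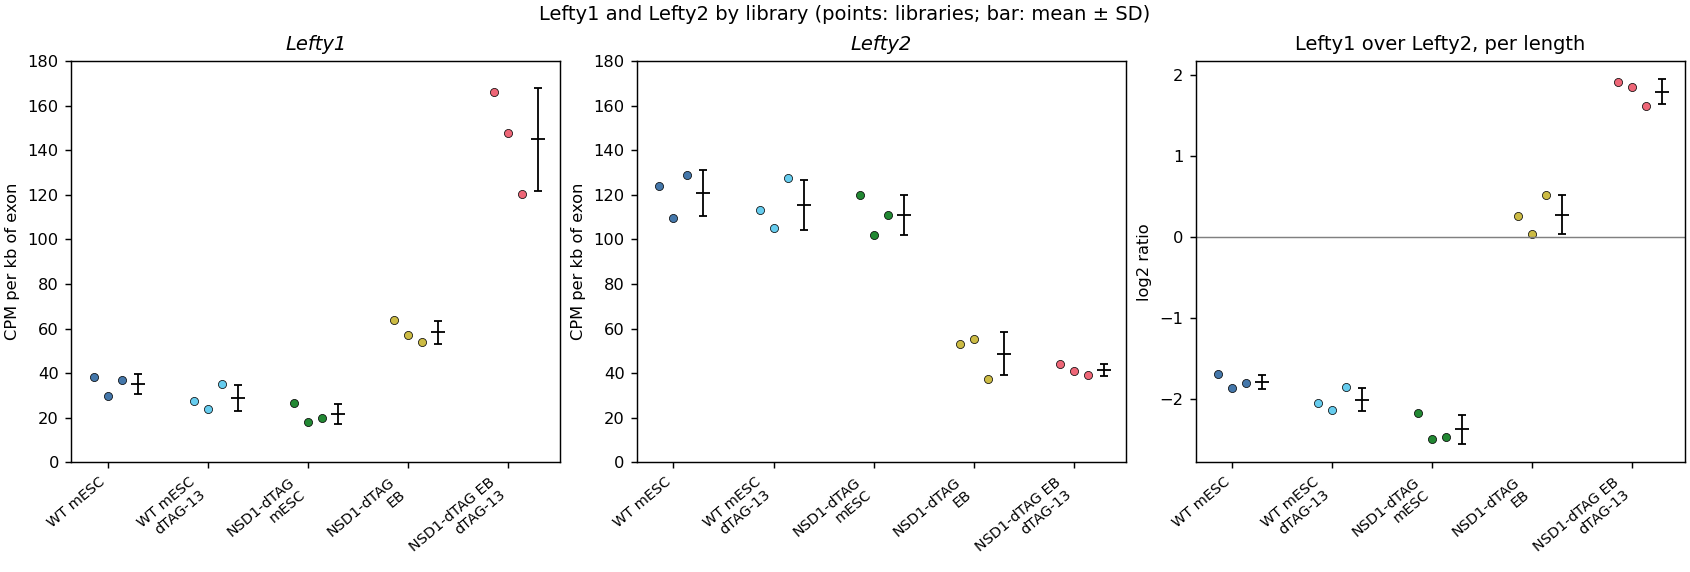
Levels of Lefty1 and of Lefty2 in CPM per kb of exon (first 2 panels, linear axes from 0) and the log2 ratio of the first to the second (last panel, line at equal levels), with points for libraries and bars for the mean ± SD of each group of 3. The mean log2 ratio was -1.79, -2.01 and -2.38 in the 3 mESC groups, 0.27 in nontreated EBs and 1.79 in dTAG-13 EBs.

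The genes around the pair were looked at after the Lefty values had been seen. Within 100000 bp of either gene, 6 other genes were tested. Tmem63a, the next gene downstream of Lefty1 on the same strand (chr1:180942344-180975112), rose from a mean of 23.5 to 50.2 CPM (log2 fold change 1.08, SE 0.12, edgeR adjusted p = 0.0059). It was the 1 neighbour called of 6, beside 6.76% of all genes. Tmem63a, which encodes a membrane ion channel, was also higher in nontreated EBs than in NSD1-dTAG mESCs (5.42 CPM, log2 fold change 1.97, SE 0.15, edgeR adjusted p = 1.40e-05).

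**Figure D4:**
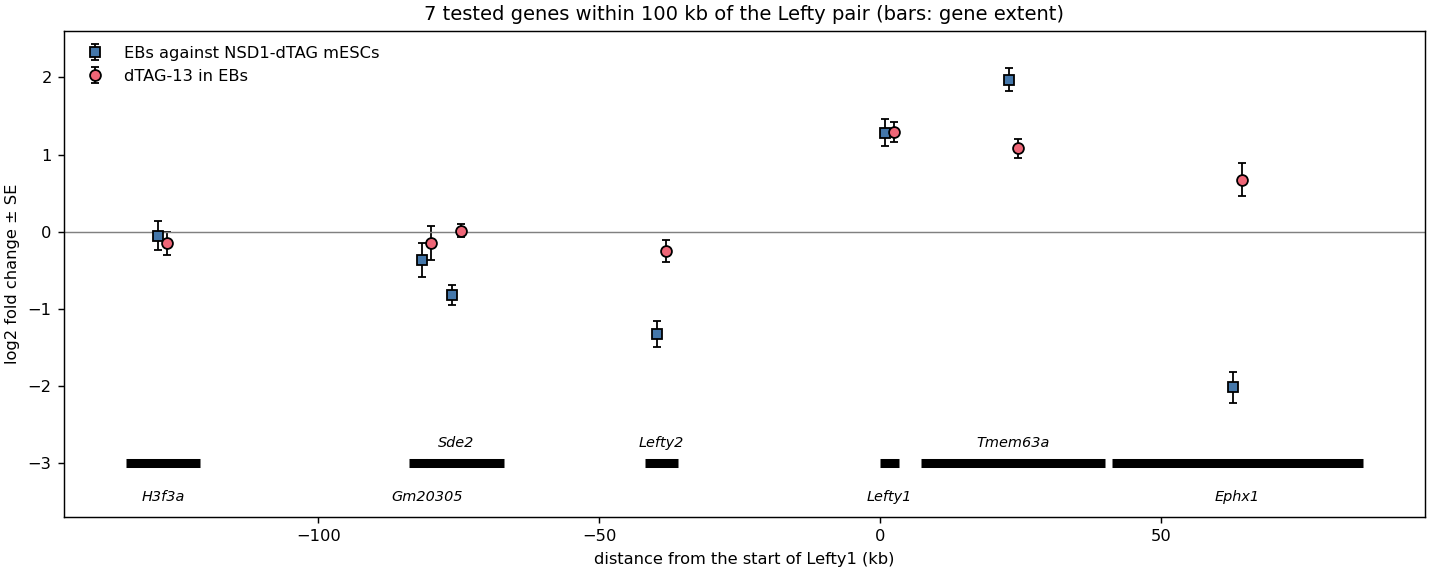
Log2 fold changes with standard errors of 7 tested genes around and including the Lefty pair against the distance from the start of Lefty1 in kb, with squares for EBs against NSD1-dTAG mESCs, circles for dTAG-13 in EBs and bars for the extent of each gene. For dTAG-13 in EBs, Lefty1 (1.29) and Tmem63a (1.08) passed the threshold and the other genes shown did not.

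In wild-type mESCs, 72 h of dTAG-13 gave no call among the 10 genes. No gene of 13784 was called (0%) by edgeR, where 229 had an unadjusted p below 0.05, or by DESeq2, where 79 did. The log2 differences of the 10 genes ran from -0.29 (Lefty1, SE 0.15) to 0.09 (Foxh1, SE 0.07), with a median of 0.01 beside -0.01 over all genes. Lefty1 measured 48.1, 42.1 and 62.0 CPM with the compound and 67.2, 52.6 and 65.1 CPM without, and the ranges overlapped. Without the libraries that stand apart Lefty1 was called lower (-0.36, edgeR adjusted p = 0.0055), in a fit that called 16 of 13861 genes.

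Nontreated NSD1-dTAG mESCs shared the wild-type nontreated libraries as controls with the previous comparison. None of the 10 genes was called by edgeR without a block, in a comparison where 1.86% of 13895 genes were called (0.547% higher and 1.32% lower) and 1957 had an unadjusted p below 0.05. DESeq2 called 1 of the 10. The median log2 difference was 0.03 over the 10 genes and 0.01 over all genes. Lefty1 measured 46.7, 31.7 and 35.2 CPM in the tagged line against 67.2, 52.6 and 65.1 CPM in wild-type cells. All 3 tagged libraries lay below all 3 wild-type ones, and the log2 difference was -0.64 (SE 0.18, unadjusted p = 0.0093, edgeR adjusted p = 0.148).

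Same-numbered libraries of these 2 groups deviated together, and library 1 stands apart in both. With the replicate number as a block Lefty1 was called lower in the tagged line (-0.65, SE 0.10, edgeR adjusted p = 0.0169). It was also called by DESeq2 (-0.63, adjusted p = 0.0398) and without NSD1-dTAG library 1 (-0.84, edgeR adjusted p = 9.93e-04). The fit without NSD1-dTAG library 1 called 1248 of 14035 genes, against 259 of 13895 with all libraries. Smad7 measured 122, 137 and 128 CPM against 112, 113 and 114 CPM, a log2 difference of 0.25 (SE 0.07, edgeR adjusted p = 0.148) without overlap. Pcsk6 measured 94.3 and 96.7 CPM in NSD1-dTAG libraries 2 and 3 and 70.7 CPM in library 1, where wild-type libraries ranged from 70.5 to 76.2 CPM. Its log2 difference was 0.29 (SE 0.12, edgeR adjusted p = 0.323), and 0.41 without NSD1-dTAG library 1 (edgeR adjusted p = 0.0030). Nodal differed by 0.27 (SE 0.10, edgeR adjusted p = 0.295), and Lefty2, Tdgf1, Gdf3, Foxh1, Acvr1b and Acvr2b by between -0.06 and 0.14. Scaled by the ERCC spike-ins, the median of all genes in this comparison moved from 0.01 to -0.10, and none of the 10 genes was called. Without the libraries that stand apart, 6 of the 10 were called, in a fit that called 3123 of 13762 genes. Lefty1 (-0.77) and Lefty2 (-0.13) were lower, and Nodal (0.22), Pcsk6 (0.37), Smad7 (0.26) and Acvr1b (0.17) higher. None of the 8 stem cell markers was called between the 2 lines (3 higher without NSD1-dTAG library 1 and 6 higher without the libraries that stand apart), with sums of 4907 to 5343 CPM in the tagged and 4851 to 4962 CPM in wild-type mESCs.

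The change with dTAG-13 in NSD1-dTAG EBs was then set against that in wild-type mESCs as an interaction. The cell state, the tag and the time of exposure all differ between these 2 contrasts and cannot be told apart. Of the 10 genes 2 were called, with 2.88% of 15855 genes called overall (1.6% higher and 1.27% lower). The Lefty1 change was higher in the EBs by 1.57 on the log2 scale (SE 0.21, edgeR adjusted p = 0.0022). Lefty1 rose in the EBs, while its estimate in wild-type mESCs was negative and not called. Pcsk6 differed by -0.57 (SE 0.14, edgeR adjusted p = 0.0461), a call that was lost with the replicate block (-0.56, edgeR adjusted p = 0.0824) and in 10 of 12 fits that left out 1 library. Tdgf1 differed by -0.78 (SE 0.21, edgeR adjusted p = 0.0692), and was called lower with the replicate block (-0.81, SE 0.17, edgeR adjusted p = 0.0281). Without the libraries that stand apart 5 of the 10 were called, in a fit that called 1897 of 15990 genes. Beside Lefty1 and Pcsk6 these were Tdgf1 (-0.63) and Nodal (-0.34), lower, and Gdf3 (0.42), higher.

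A list of 30 further pathway components was counted beside the 10 genes. Neither Gdf1, a ligand that pairs with Nodal, nor the type I receptor Acvr1c (ALK7) had any count in the 15 libraries. A count of 0 allows up to 0.16 CPM in the smallest library, taking 3 counts as the floor. All exons of Gdf1 overlap Cers1 on the same strand, so a read over them cannot be assigned to Gdf1 alone. Of the 22 components tested, none was called with dTAG-13 in wild-type mESCs. Between NSD1-dTAG and wild-type mESCs none was called without a block, and 2 were with it, Inhbb higher and Skil lower. In that comparison DESeq2 and the gene-length offset each called 1. Leaving out NSD1-dTAG library 1 gave 2 calls, in a fit that called 1248 of 14035 genes. Leaving out the libraries that stand apart gave 7, in a fit that called 3123 of 13762 genes. Tgif1 and Trim33, both regulators of SMAD signalling, had the highest levels in nontreated wild-type mESCs, at 162 and 131 CPM.

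In EBs against NSD1-dTAG mESCs, 15 of the 26 components tested rose, 3 fell and 8 were not called, with a median log2 fold change of 0.76. Of all 15193 genes tested there, 33.1% were called higher and 26.3% lower. Skil (SnoN), a SMAD-binding repressor and feedback target, rose from a range of 23.6 to 35.3 CPM to 283 to 331 CPM (log2 fold change 3.20, SE 0.16, edgeR adjusted p = 1.78e-06). Fstl3, which binds activin, rose by a log2 fold change of 2.86 and Inhbb, an activin subunit, fell by 3.18 on the log2 scale. The signal transducers Smad2 (log2 difference -0.0024, SE 0.15) and Smad3 (0.38, SE 0.22, edgeR adjusted p = 0.171) were not called. Cer1, a secreted antagonist of Nodal, had 0 counts in all 9 mESC libraries and 61.4, 87.9 and 14.8 CPM in nontreated EBs, at least 1499-fold higher when the NSD1-dTAG mESC group is set to a floor of 3 counts.

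With dTAG-13 in EBs, 1 of 28 components rose and 4 fell, with a median of 0.05, beside 6.76% of all genes called (3.98% higher and 2.78% lower). Cer1 fell to 1.64, 3.21 and 6.33 CPM (log2 fold change -3.88, SE 0.69, edgeR adjusted p = 0.0187). All treated libraries were below nontreated library 3, which itself was far below the other 2. Cfc1 (Cryptic, a co-receptor related to Tdgf1) fell from 10.4, 16.3 and 3.72 CPM to 1.33, 1.16 and 1.74 CPM (log2 fold change -2.85, SE 0.50, edgeR adjusted p = 0.0180). Fst (follistatin, an activin antagonist) and the convertase Pcsk5 fell by log2 values of -1.79 and -2.59. Inhba, an activin subunit, rose from at most 0.596 CPM to between 1.58 and 2.23 CPM (log2 fold change 1.89, SE 0.33, edgeR adjusted p = 0.0175). The antagonists therefore did not move together: Lefty1 rose, Cer1 and Fst fell, and Lefty2 was not called.

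With the replicate block, 4 of these components were called higher and 5 lower, beside 1046 higher and 788 lower of 15236 genes tested. Leaving out 1 library gave between 0 and 7 called, with none called without nontreated EB library 1, nontreated EB library 2 or dTAG-13 EB library 1, and 2 without dTAG-13 EB library 2. Smad2 and Smad3 differed by -0.01 (SE 0.09) and 0.09 (SE 0.15) with dTAG-13 in EBs. Fst, Cfc1 and Eomes overlap exons of genes on the opposite strand (Gm47040, Prss40 and Gm33460). So do Fstl3 (1157 of its 2445 bp, with Prss57) and Sox17 (804 of its 4772 bp, with Gm37587). The counted strand is not stated, so reads of each pair may be mixed.

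The RNA of 10 genes known to depend on Nodal in mesoderm and endoderm formation was also counted. In EBs against NSD1-dTAG mESCs all 10 rose (median log2 fold change 7.08), beside 33.1% of all genes called higher. Lhx1 and Cyp26a1 rose from 0 counts by at least 2990-fold and 3305-fold. Fgf8 and Foxa2 rose by log2 fold changes of 8.24 and 9.22, from 17 and 5 counts summed over the 3 mESC libraries. Sox17, with 2 counts over those libraries and 1709 over the 3 EB libraries, is given without a fold. Eomes, a T-box factor of the primitive streak, rose by 3.40 and T (brachyury) by 3.77, where mESC levels were already 13.8 to 18.4 CPM and 16.2 to 17.3 CPM. In both mESC comparisons 5 of the 10 were tested and none was called. Without the libraries that stand apart T was called higher with dTAG-13 in wild-type mESCs, in a fit that called 16 of 13861 genes.

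With dTAG-13 in EBs none of the 10 target genes rose and 7 fell, with a median log2 fold change of -2.46 beside -0.01 over all genes, of which 2.78% were called lower. Lhx1 measured 109, 192 and 25.5 CPM in nontreated EBs and 4.85, 9.78 and 9.04 CPM with dTAG-13 (log2 fold change -3.79, SE 0.66, edgeR adjusted p = 0.0180). Gsc (goosecoid) and Foxa2, organizer and endoderm factors, fell by -3.43 and -2.54 on the log2 scale. Eomes measured 169, 259 and 124 CPM against 36.4, 70.7 and 26.4 CPM (log2 fold change -2.06, SE 0.38, edgeR adjusted p = 0.0208). T measured 238, 376 and 139 CPM against 11.6, 33.8 and 0.270 CPM, without overlap, and missed the threshold (log2 difference -4.06, SE 1.01, edgeR adjusted p = 0.0526). Sox17 (-1.65, SE 0.47) was not called.

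Nontreated EB library 3 had the lowest level of Lhx1, Eomes, T, Gsc and Foxa2 of its group, and the number of target genes called turned on single libraries. None was called without nontreated EB library 1, nontreated EB library 2 or dTAG-13 EB library 1, where 301, 182 and 184 of all genes were called. Without nontreated EB library 3, dTAG-13 EB library 3 or dTAG-13 EB library 2 the counts were 8, 9 and 6, and 9 were called when library 3 of both groups was left out. Over all genes those fits called 1293, 1148, 395 and 3233, against 1030 with all 6 libraries. Lefty1, also a target of the pathway, was called higher in every fit named in this paragraph.

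**Figure D5:**
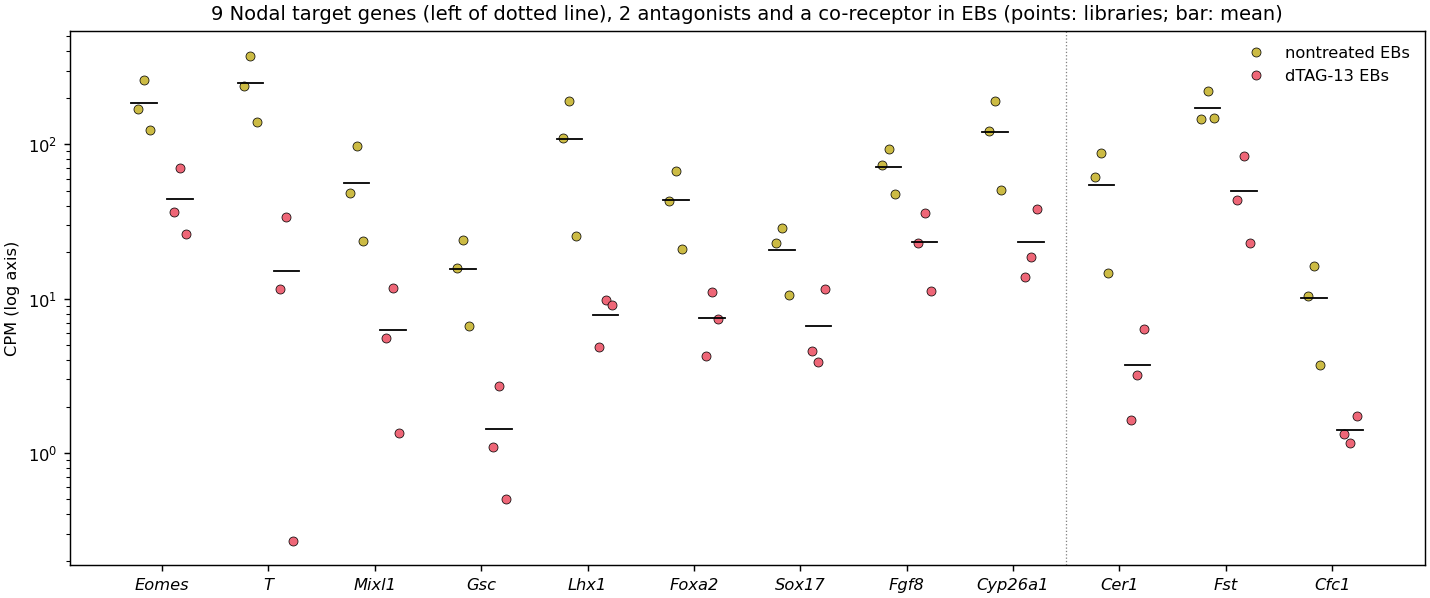
CPM of 9 of the Nodal target genes (left of the dotted line) and of Cer1, Fst and Cfc1 in the 6 EB libraries on a log axis, with points for libraries and bars for group means. Eomes ranged from 124 to 259 CPM without dTAG-13 and from 26.4 to 70.7 CPM with it, and nontreated library 3 is the lowest of its group for Eomes, T, Lhx1, Gsc and Foxa2.

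By the root mean square difference of centred log2(CPM + 0.5) values over the 15 libraries, among 12955 genes with a mean of at least 1 CPM, the genes most like Nodal were Lurap1 (0.105), 2310022B05Rik (0.110) and 8430429K09Rik (0.124). Those most like Lefty2 were D230025D16Rik (0.117), Aacs (0.129) and Epb41l4b (0.145). The nearest to Lefty1 were more distant: Casp8 (0.276), Sytl1 (0.278) and Mlxipl (0.287). Casp8, a caspase of the death receptor pathway, averaged 0.875 CPM in NSD1-dTAG mESCs, 3.82 CPM in nontreated EBs and 7.65 CPM in dTAG-13 EBs.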

How the data were processed

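Poly(A) RNA of 15 libraries in 5 groups of 3 was analysed from raw read counts per gene, which the authors deposited without normalization in a separate table for each library. The builds GRCm38.p6 and mm10 and the tools STAR (no version), bcl2fastq 2.20.0.422 and DESeq2 1.30.0 come from the submitters' processing notes. Per the labels' protocols the library kit was strand-specific. Which strand was counted, how multi-mapping reads were treated, and which annotation was used is not given in the sources used here. Of 55471 gene IDs, 55230 matched GENCODE M21 (GRCm38), and the 92 ERCC spike-ins stayed out of library sizes.

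CPM values are counts scaled to a common total of gene counts per library, without TMM factors, and per-kilobase values divide these by the union of the gene's exons. The test was that of edgeR 4.0.16, run in R 4.3.3 (quasi-likelihood F test, TMM factors, filterByExpr, Benjamini-Hochberg adjustment over all genes tested, threshold 0.05), each comparison with its own groups, and the script was tested on simulated data. The Lefty ratio was tested by exact permutation over libraries. Alternatives were DESeq2 1.42.0, no filter, the replicate number as a block, a gene-length offset, ERCC scaling (mESCs), all 15 libraries in 1 fit, and leaving out each library or those that stand apart. Fits without the low-count filter kept genes with at least 1 count.

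Same-numbered libraries deviated together from their group means for NSD1-dTAG against wild-type mESCs (correlations across genes 0.584, 0.289 and 0.285) and for dTAG-13 in EBs (0.228, 0.268 and 0.373), so blocked values are given there. The pairing comes from the data, since the labels state none. In both comparisons the library that stands apart has the same number in its 2 groups, 1 in the mESCs and 3 in the EBs. Whether the block holds more than that difference was not tested. No pair of libraries had counts that differed by less than sampling noise.

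The 10 genes and all lists were chosen with earlier results of these data known, so no list is independent evidence of its direction. The naming rule covered all 10 genes, the 4 called genes of each further list with the smallest p (or, where none was called, those with the highest CPM), Cer1, Smad2, Smad3, Eomes and T always, marker lists as counts, and the 3 genes most like Nodal, Lefty1 and Lefty2. The count floor was 3, and floors cover counting error only. Sequences come from GENCODE M21 transcripts and, for promoters, from RefSeq (GRCm38.p6). A few genes that the naming rule or the gene window covers, and 1 sequence stretch, are not reported here.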

Additional observations from a re-analysis of the deposited data

Results flagged for a closer look

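Each value here is the log2 change with dTAG-13 in NSD1-dTAG EBs minus the log2 change with dTAG-13 in wild-type mESCs, from 1 edgeR fit of 12 libraries, and each is listed because that difference itself passed an adjusted p below 0.05. Lefty1 differed by 1.57, with CPM higher in all 3 dTAG-13 EB libraries than in all 3 nontreated EB libraries. Pcsk6 differed by -0.57. Of the further pathway components Fst differed by -1.94 (SE 0.46, edgeR adjusted p = 0.0394), a call lost in 9 of 12 fits that left out 1 library, with 0 to 2 components called in those fits. Of the Nodal target genes Gsc differed by -3.45, Eomes by -2.08 and T by -4.44, the last with a standard error of 1.04. The number of target genes called in this fit ranged from 0 to 3 when 1 library was left out.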

How the results depend on the processing

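Between EBs and NSD1-dTAG mESCs 8 of the 10 genes were called in every fit run. For dTAG-13 in EBs, 2 were called, and 5 by DESeq2, 5 with all 15 libraries in 1 fit, 6 without the libraries that stand apart and 1 to 4 when 1 library was left out (1 without nontreated library 1 or 2 or dTAG-13 library 1, 4 without nontreated library 3). With the replicate block 4 were called. For NSD1-dTAG against wild-type mESCs, 0 were called, and 1 by DESeq2, 1 with the replicate block and 2 with the gene-length offset. The count was 6 without the libraries that stand apart and 0 to 3 when 1 library was left out. The 3 came without NSD1-dTAG library 1, in a fit that called 1248 of 14035 genes, against 259 of 13895 with all libraries. For dTAG-13 in wild-type mESCs 1 was called without the libraries that stand apart, in a fit that called 16 of 13861 genes, and 0 otherwise. For the interaction 2 were called, 5 without the libraries that stand apart and 1 to 3 when 1 library was left out. The replicate block changed no member's call for dTAG-13 in wild-type mESCs or for EBs against mESCs, where the numbers do not pair the libraries (same-numbered libraries were not the best match in every case) and calls over all genes went from 0 to 0 and from 9037 to 7999.

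The log2 Lefty ratio for dTAG-13 in EBs was 1.73 without the libraries that stand apart, and 1.40 to 1.64 when 1 library was left out. The other ratio differences ranged from 2.53 to 2.77 (EBs against mESCs), -0.69 to -0.53 (NSD1-dTAG against wild-type) and -0.30 to -0.16 (dTAG-13 in wild-type mESCs). No result changed direction after being called.

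Over all genes, calls for dTAG-13 in EBs numbered 1030, against 1686 by DESeq2, 1834 with the replicate block, 1931 with all libraries in 1 fit and 3233 without the libraries that stand apart. For NSD1-dTAG against wild-type mESCs they numbered 259, against 636, 785, 500 and 3123 in the same order, 650 with the length offset and 1 with ERCC scaling. For the interaction they numbered 456, against 799 by DESeq2, 915 without a filter and 1897 without the libraries that stand apart. ERCC counts were 0 in the EB libraries, so that scaling was run for mESCs only.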
